A study of Mus musculus with 6 samples.

Results

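Genes that encode potassium channel subunits were compared between bone marrow cells that make stem cell factor and unselected bone marrow. They were taken by symbol, as every gene whose only listed symbol begins with Kcn, further letters and a digit, and 91 of the 19938 genes tested met this rule. Of these, 88 encode pore-forming or accessory subunits, and 3 (Kcnd3os, Kcnmb4os1 and Kcnmb4os2) are RNAs from the opposite strand of such a gene. The Scf-GFP+ cells carry green fluorescent protein knocked into one allele of the stem cell factor gene Kitl, and were sorted a second time for purity from the marrow of heterozygous young adult mice. Whole bone marrow cells, the comparison group, were sorted from young adult wild-type mice. All mice had a C57BL/6 background. RNA of 5000 cells was amplified for each of 6 Affymetrix Mouse Gene 1.0 ST arrays, 3 per population, and values are the deposited log2 summaries per gene. Genotype and the second sort differ between the groups together with the cell population, and their contributions cannot be told apart. Nothing in the labels ties the aliquots to different animals, and the p-values cover only the variation among these arrays, some of which may be technical.

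Potassium channels let potassium leave or enter the cell along its gradient and so set the resting membrane potential. Voltage-gated channels open on depolarisation, calcium- and sodium-activated channels open when these ions rise inside the cell, inward rectifiers pass current mainly into the cell, and tandem-pore channels carry background leak. Pore subunits assemble into tetramers, or into dimers for the tandem-pore channels, and accessory subunits change how many channels reach the membrane and how they open. In marrow, the calcium-activated channel encoded by Kcnn4 is known from red cells, where it drives the potassium loss called the Gardos effect, and from lymphocytes and macrophages. The channel encoded by Kcna3 is known from lymphocytes.

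Markers were checked against the labels first. All 10 listed markers of perivascular stroma, Kitl among them, were called higher in Scf-GFP+ cells, and their mean log2 value was 11.23 to 11.26 on the Scf-GFP+ arrays and 6.03 to 6.07 on the whole marrow arrays. Kitl is the gene the cells were sorted on, so it checks the labels only. The lists were chosen with earlier results of these data known, so the other markers are no independent check either. All 8 measured erythroid markers and all 9 measured B cell markers were called lower in Scf-GFP+ cells. Of all genes tested, 9.01% were called higher and 7.89% lower. Other lists were mixed. Called lower were 4 of 7 macrophage and monocyte markers (57.1%), 4 of 9 T and NK cell markers (44.4%) and 1 of 7 megakaryocyte markers (14.3%). Vcam1, also on the macrophage list, was called higher. Of 10 endothelial markers, 2 were called higher (20.0%, against 9.01% of all genes) and 1 lower (10.0%, against 7.89% of all genes). Neutrophil markers stood apart on Scf-GFP+ replicate 1, where the mean log2 value of the 10 listed genes was 9.94, against 5.71 and 5.89 on replicates 2 and 3 and 12.05 to 12.12 in whole marrow. Scf-GFP+ replicates 1 and 2 also carried Xist at 11.50 and 11.81, against 5.04 on Scf-GFP+ replicate 3 and 4.99 to 5.10 in whole marrow. The Y-linked genes ran the other way. Eif2s3y measured 4.41, 3.72 and 8.23 in Scf-GFP+ cells, against 7.97, 7.61 and 7.33 in whole marrow, and Kdm5d measured 5.57, 5.15 and 9.09 in Scf-GFP+ cells, against 7.58, 7.73 and 6.93 in whole marrow. In these sex-linked RNAs, Scf-GFP+ replicates 1 and 2 therefore differed from every whole marrow array and replicate 3 did not, and sex, as far as these RNAs mark it, is a further factor that differs between the groups. The values with a term for Xist, which leaves the difference resting on Scf-GFP+ replicate 3, are given with the alternatives. For Kcnip3, Kcne4, Kcne2 and Kcnd1, whose highest value lay on Scf-GFP+ replicate 1 or 3, the difference without that array is given.

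Few potassium channel genes differed between the populations. A gene was called at a limma adjusted p below 0.05, by the Benjamini-Hochberg method over all genes tested, with a difference of at least 2-fold. Of the 91 genes, 4 were called higher in Scf-GFP+ cells (Kcnip3, Kcnk2, Kcne4 and Kcnt1), which is 4.40% against 9.01% of all genes tested. Called lower were 2 (Kcnn4 and Kcnab2), which is 2.20% against 7.89% of all genes. The median difference of the 91 genes, Scf-GFP+ minus whole marrow, was -0.15 on the log2 scale, and that of all genes was -0.08. The difference was smaller than 0.5 on the log2 scale in either direction for 78 of the 91 (85.7%), against 67.0% of all genes. For 79 (86.8%) the whole 95% interval of the difference lay inside a 2-fold change either way, against 67.1% of all genes. Many of these genes were dim, with 60 of the 91 (65.9%) below the median of every array, against 35.7% of all genes. Arrays lose resolution for dim probes, and whether brightness bears on these shares was not tested. No detection calls come with the values, and a dim gene is therefore not called absent. Leaving out a single array changed the counts. The genes called higher fell to 2 without whole marrow replicate 1 or without whole marrow replicate 3, which removed Kcne4 and Kcnip3 in both cases. The genes called lower fell to 1 when Scf-GFP+ replicate 2, Scf-GFP+ replicate 3 or whole marrow replicate 1 was left out, which removed Kcnab2 each time, and rose to 3 without whole marrow replicate 2, which added Kcne3. Without Scf-GFP+ replicate 1 or whole marrow replicate 3 it stayed at 2, with Kcnj2 in place of Kcnab2.

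**Figure D1:**
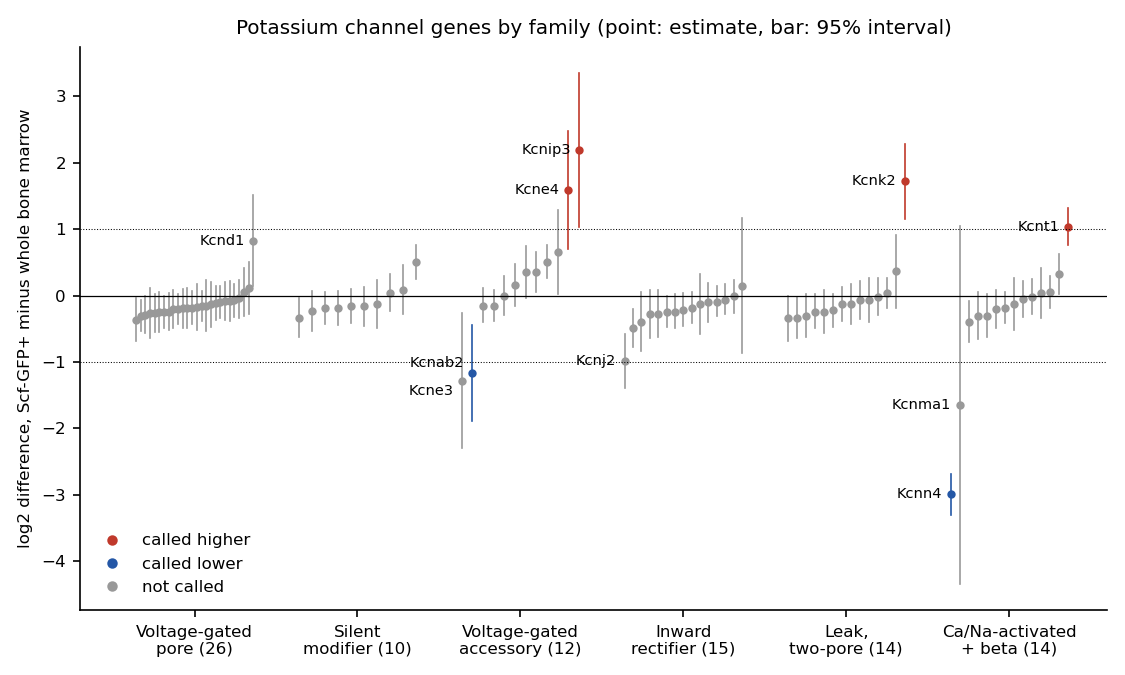
Each point is the log2 difference, Scf-GFP+ minus whole bone marrow, of 1 of the 91 potassium channel genes, grouped by family with the number of genes in brackets, and each bar is its 95% interval. Dotted lines mark a 2-fold change. Most genes lie within 0.5 of 0, and 6 are called, from Kcnn4 at -2.99 to Kcnip3 at 2.19.

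The promoters of the called genes that moved furthest are shown here, because these genes had the largest called differences. The windows run from 250 bases before to 50 after the annotated transcription start (RefSeq, GRCm38.p6), 5′ to 3′ on the gene's strand. RefSeq windows were at hand for 69 of the 91 genes, 94 windows in all, and where a gene has several the one furthest upstream was taken. Each window was searched on both strands for the GATA-type motif AGATAA, the GC box GGGCGG, the TATA box TATAAA and the E-boxes written as CACGTG or as CAGGTG, and matches are in capitals. No match overlapped another in these windows.
Kcnip3, chr2:127522045-127522344, minus strand: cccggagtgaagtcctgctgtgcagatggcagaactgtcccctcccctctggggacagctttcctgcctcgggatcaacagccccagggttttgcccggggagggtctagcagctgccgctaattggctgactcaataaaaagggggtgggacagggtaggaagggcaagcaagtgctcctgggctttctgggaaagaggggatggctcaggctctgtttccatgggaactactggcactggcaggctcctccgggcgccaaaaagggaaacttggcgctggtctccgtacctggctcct
Kcnk2, chr1:189402224-189402523, minus strand: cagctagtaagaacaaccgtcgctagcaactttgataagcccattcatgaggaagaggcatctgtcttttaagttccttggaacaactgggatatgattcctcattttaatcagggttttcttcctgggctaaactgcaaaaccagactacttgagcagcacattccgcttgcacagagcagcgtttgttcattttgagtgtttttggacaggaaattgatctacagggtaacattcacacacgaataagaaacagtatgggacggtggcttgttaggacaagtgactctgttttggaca
Kcne4, chr1:78816661-78816960, plus strand: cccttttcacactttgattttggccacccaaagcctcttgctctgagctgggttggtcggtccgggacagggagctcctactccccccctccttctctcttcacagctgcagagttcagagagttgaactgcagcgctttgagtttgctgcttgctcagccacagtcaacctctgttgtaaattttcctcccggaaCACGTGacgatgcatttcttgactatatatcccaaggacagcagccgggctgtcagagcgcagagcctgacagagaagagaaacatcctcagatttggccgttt
Kcnn4, chr7:24370013-24370312, plus strand: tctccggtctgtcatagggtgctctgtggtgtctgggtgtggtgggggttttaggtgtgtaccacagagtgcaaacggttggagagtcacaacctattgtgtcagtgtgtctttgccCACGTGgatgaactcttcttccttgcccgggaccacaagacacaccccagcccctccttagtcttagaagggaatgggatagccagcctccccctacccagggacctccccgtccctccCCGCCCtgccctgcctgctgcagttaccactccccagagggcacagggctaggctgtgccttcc
The E-box CACGTG, which several helix-loop-helix factors bind, occurs once in the window of Kcne4, called higher, and once in that of Kcnn4, called lower. It is found in 7.15% of all 32851 promoter windows and in 7.45% of the windows of potassium channel genes. The window of Kcnn4 also holds the GC box, as its reverse complement, and 35.7% of all windows and 47.9% of potassium channel windows hold it. Those of Kcnip3 and Kcnk2 hold none of the 5 motifs. Among all windows, AGATAA occurs in 11.2%, TATAAA in 13.6% and CAGGTG in 20.2%. Among the potassium channel windows, AGATAA occurs in 4.26%, TATAAA in 5.32% and CAGGTG in 25.5%. The median GC content was 58.2% in potassium channel windows and 52.7% in all windows. A match is a description of the letters and not evidence of binding.

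Kcnn4 had the largest difference of the 91 genes, in either direction. It encodes the intermediate-conductance calcium-activated channel. Its log2 values were 6.23, 6.18 and 6.31 in Scf-GFP+ cells, against 9.0, 9.34 and 9.35 in whole marrow. The highest Scf-GFP+ array lay far below the lowest whole marrow array. The difference was -2.99 ± 0.13 (limma moderated SE, n = 3 arrays per group), which is 7.96-fold lower in Scf-GFP+ cells (limma adjusted p = 1.37e-05). It was called lower in all 15 alternatives, and was the only member for which that held. Beside it, the mean log2 value of the 8 measured erythroid markers was 5.84 to 6.13 in Scf-GFP+ cells and 10.25 to 10.84 in whole marrow, and that of the 9 measured B cell markers was 5.76 to 6.07 in Scf-GFP+ cells and 8.79 to 9.57 in whole marrow. Macrophage and monocyte markers averaged 7.26 to 7.46 in Scf-GFP+ cells and 8.35 to 8.61 in whole marrow. Of these 7, 4 were called lower (57.1%, against 7.89% of all genes) and 1, Vcam1, higher (14.3%, against 9.01% of all genes). T and NK cell markers averaged 5.66 to 5.73 in Scf-GFP+ cells and 6.96 to 7.40 in whole marrow. Of these 9, 4 were called lower (44.4%, against 7.89% of all genes) and 5 were not called. The part of these cell types in the difference was not tested. In bulk samples such as these, fewer cells of a type and less RNA per cell cannot be told apart.

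The other calcium- and sodium-activated channels and their beta subunits held 1 further call. Of the family's 14 genes, 1 was thus called higher (7.14%, against 9.01% of all genes). Kcnn4 was the 1 called lower (7.14%, against 7.89% of all genes). The 12 not called had differences from -1.65 (Kcnma1) to 0.32. Kcnt1, a sodium-activated channel best known from neurons, measured 6.51, 6.24 and 6.44 in Scf-GFP+ cells, against 5.41, 5.27 and 5.39 in whole marrow. The groups did not overlap, and the difference of 1.04 ± 0.12 (2.06-fold, limma adjusted p = 7.98e-04) only just exceeded 2-fold. Without Scf-GFP+ replicate 1 it was 0.99 (limma adjusted p = 0.00386) and missed the 2-fold threshold. Kcnt2, the related gene, had a difference of 0.32 ± 0.12 that did not pass (limma adjusted p = 0.106). The small-conductance calcium-activated channels Kcnn1, Kcnn2 and Kcnn3 differed by 0.06, -0.05 and -0.18, none of them called. Among the beta subunits of the large-conductance channel, Kcnmb1, which is typical of smooth muscle, differed by -0.12, Kcnmb2 by -0.30, Kcnmb4 by -0.20 and Kcnmb3 by -0.39. Kcnmb3 measured 7.41, 7.53 and 7.36 in Scf-GFP+ cells, against 7.92, 7.94 and 7.61 in whole marrow, without overlap and without passing (limma adjusted p = 0.0711). Kcnu1, the sperm channel, differed by -0.02. The antisense RNAs Kcnmb4os1 and Kcnmb4os2 differed by 0.04 and -0.30.

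Kcnma1, which encodes the pore of the large-conductance calcium-activated channel, could not be judged from a group mean. The row with the higher mean, which stood for the gene, measured 5.42, 5.18 and 5.43 in Scf-GFP+ cells, against 5.56, 9.88 and 5.54 in whole marrow. Whole marrow replicate 2 alone was high, and the difference of -1.65 ± 1.13 did not pass (limma adjusted p = 0.337). The gene's other row measured 4.77, 4.87 and 4.80 in Scf-GFP+ cells, against 5.15, 4.86 and 5.00 in whole marrow, a difference of -0.19, and shows no high array. The rows list 4 and 20 accessions and share none of them, so they may not measure the same transcript.

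The accessory subunits of voltage-gated channels held calls in both directions. Of 12, 2 were called higher (16.7%, against 9.01% of all genes) and 1 lower (8.33%, against 7.89% of all genes), the lower share being close to that of all genes. In 6 of the 12 the difference was smaller than 0.5 on the log2 scale, as it was in 67.0% of all genes. Kcnip3 encodes a calcium-binding protein of the neuronal calcium sensor family that binds Kv4-type pore subunits and is also known as a transcriptional repressor. It measured 9.24, 9.22 and 10.60 in Scf-GFP+ cells, against 7.16, 8.31 and 7.01 in whole marrow. Scf-GFP+ replicate 3 and whole marrow replicate 2 were each the highest of their group, and the groups did not overlap. The difference was 2.19 ± 0.49 (4.57-fold, limma adjusted p = 0.0165), with a 95% interval of 1.03 to 3.36. Without whole marrow replicate 1 it was 2.03 and without whole marrow replicate 3 it was 1.95, with limma adjusted p = 0.0605 and 0.0616, from 0.0108 to 0.228 over all alternatives. Without Scf-GFP+ replicate 3 it was 1.74 and was still called (limma adjusted p = 0.0277). Its relatives were not called. Kcnip1 and Kcnip2 both differed by -0.15, and Kcnip4 by 0.36 ± 0.13.

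Kcne4, a single-pass subunit that reduces the current of several voltage-gated channels, measured 7.44, 6.31 and 5.95 in Scf-GFP+ cells, against 4.89, 5.18 and 4.86 in whole marrow. Scf-GFP+ replicate 1, the array with high neutrophil markers, was the highest, and even the lowest Scf-GFP+ array exceeded whole marrow. The difference was 1.59 ± 0.37 (3.01-fold, limma adjusted p = 0.0198). Without Scf-GFP+ replicate 1 it was 1.16 and was still called (limma adjusted p = 0.00686). It was not called without whole marrow replicate 1 (1.55, limma adjusted p = 0.0654) or replicate 3 (1.53, limma adjusted p = 0.0687), and over all alternatives the adjusted p ran from 0.00686 to 0.637. Kcne3, another member of this subunit family, went the other way in its values, with 5.08, 4.99 and 5.10 in Scf-GFP+ cells against 6.29, 5.43 and 7.28 in whole marrow. The whole marrow arrays were far apart and the difference of -1.28 ± 0.43 did not pass (limma adjusted p = 0.0706). Without whole marrow replicate 2 it was -1.73 and was called (limma adjusted p = 0.0110, from 0.0110 to 1.00 over all alternatives). Without whole marrow replicate 3 it was -0.81, under 2-fold and not called (limma adjusted p = 0.0902). Kcne2 measured 5.61, 5.49 and 6.49 in Scf-GFP+ cells, against 5.22, 5.21 and 5.18 in whole marrow (0.66 ± 0.26, limma adjusted p = 0.116), and without Scf-GFP+ replicate 3 the difference was 0.35 (limma adjusted p = 0.0849). Kcne1l differed by 0.16, and Kcne1 averaged 5.21 on the Scf-GFP+ arrays, against 5.22 in whole marrow.

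The beta subunits of the Shaker-type channels, cytoplasmic proteins related to aldo-keto reductases, did not move together. Kcnab2 measured 6.57, 6.79 and 6.42 in Scf-GFP+ cells, against 7.63, 7.22 and 8.43 in whole marrow. The groups were apart, with whole marrow replicate 3 the highest, and the difference of -1.17 ± 0.30 was called (2.25-fold lower, limma adjusted p = 0.0299). This call was the least stable of the 6. The limma adjusted p was 0.0799, 0.0548 or 0.0839 without Scf-GFP+ replicate 1, 2 or 3 and 0.0693 without whole marrow replicate 1. Without whole marrow replicate 3 the difference was -0.83, under 2-fold. It was called in 7 of 15 alternatives, with adjusted p values from 0.0143 to 1.00. Kcnab1 measured 5.94, 5.96 and 5.83 in Scf-GFP+ cells, against 5.50, 5.36 and 5.33 in whole marrow, a difference of 0.51 ± 0.10 that passed the adjusted p (0.0113, limma) at 1.43-fold and so was not called. Kcnab3 differed by 0.35 ± 0.17 (limma adjusted p = 0.173).

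**Figure D2:**
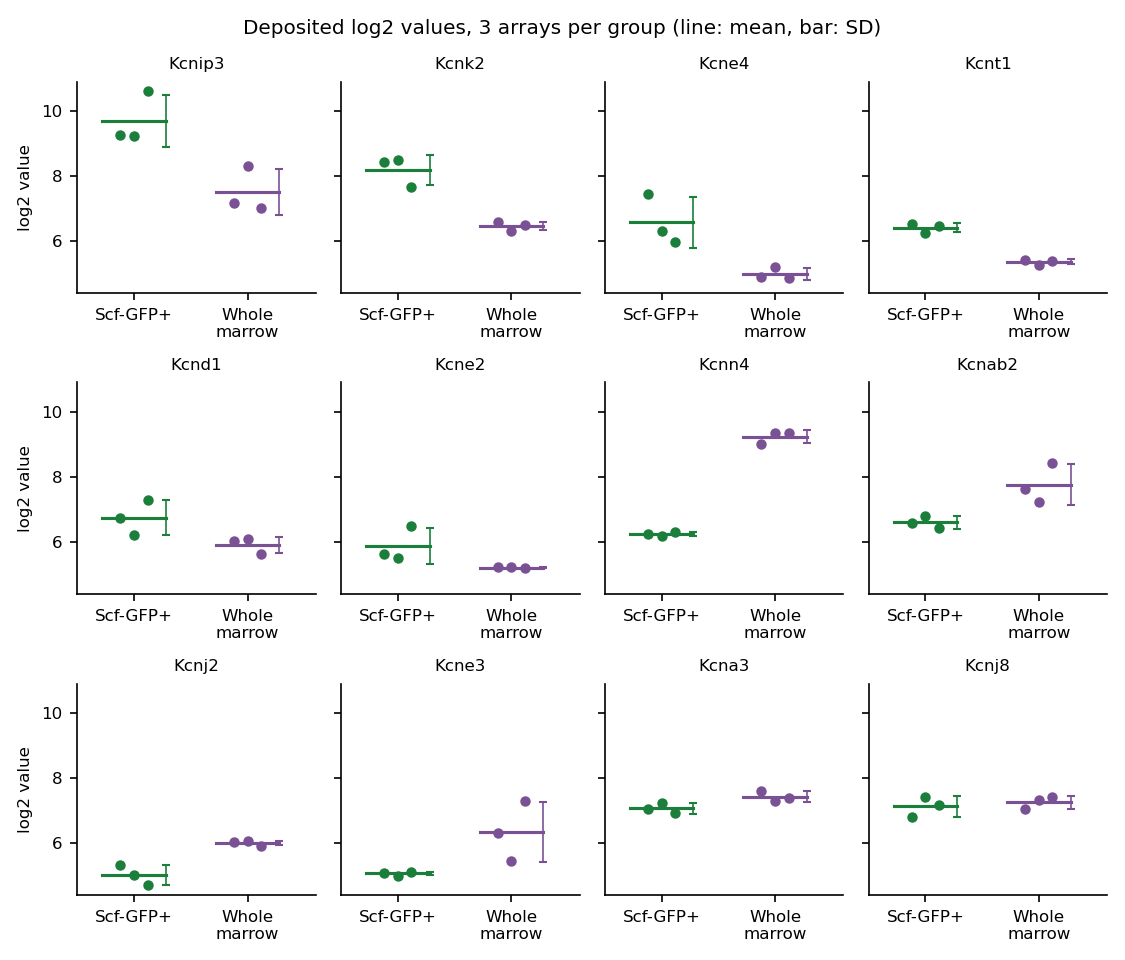
Deposited log2 values of 12 potassium channel genes on the 3 Scf-GFP+ and 3 whole bone marrow arrays, with the mean as a line and the SD as a bar. Kcnn4 has the widest gap between groups, Kcnip3, Kcne4, Kcnd1 and Kcne2 spread among the Scf-GFP+ arrays, Kcne3 and Kcnab2 among the whole marrow arrays, and Kcna3 and Kcnj8 lie close in both groups.

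No pore subunit of a voltage-gated channel was called, among 25 genes and the antisense RNA Kcnd3os, and 5 of the 26 (19.2%) had an unadjusted limma p below 0.05, against 37.7% of all genes tested. Their differences ran from -0.36 to 0.83, with a median of -0.18. Kcnd1, a pore subunit of A-type current that the Kcnip proteins bind, was the only one above 0.5. It measured 6.73, 6.20 and 7.29 in Scf-GFP+ cells, against 6.03, 6.08 and 5.63 in whole marrow. The groups were narrowly apart, and the difference of 0.83 ± 0.28 did not pass (limma adjusted p = 0.0781). Without Scf-GFP+ replicate 2 it was 1.10 and was called (limma adjusted p = 0.0221, from 0.0221 to 1.00 over all alternatives). Without Scf-GFP+ replicate 3, which held the highest value of Kcnd1, Kcnip3 and Kcne2 alike, the difference of Kcnd1 was 0.55 (limma adjusted p = 0.146). Its close relatives Kcnd2 and Kcnd3 differed by -0.24 and -0.18. Kcna3, the lymphocyte channel, measured 7.05, 7.23 and 6.90 in Scf-GFP+ cells, against 7.59, 7.28 and 7.39 in whole marrow, a difference of -0.36 ± 0.14 that did not pass (limma adjusted p = 0.103). Kcnq1, which pairs with Kcne subunits, measured 6.33, 6.48 and 6.32 in Scf-GFP+ cells, against 6.47, 6.48 and 6.47 in whole marrow, and its difference of -0.10 had a 95% interval of -0.34 to 0.14. The ether-a-go-go family (Kcnh1, Kcnh2, Kcnh3, Kcnh4, Kcnh5, Kcnh7 and Kcnh8) differed by -0.29 to -0.07. The remaining genes of this group, Kcna1, Kcna2, Kcna4, Kcna5, Kcna6, Kcna7, Kcna10, Kcnb2, Kcnc1, Kcnc2, Kcnc4, Kcnq3 and Kcnq5, differed by -0.30 to 0.11. Kcnd3os differed by -0.25.

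The silent modifier subunits form no channel alone and alter Kcnb-type pores when they join them. None of the 10 was called either, and 2 had an unadjusted limma p below 0.05 (20%, against 37.7% of all genes). Of these, Kcns3 had the largest difference. It measured 7.63, 7.48 and 7.62 in Scf-GFP+ cells, against 6.97, 7.10 and 7.15 in whole marrow, clearly apart. At 0.50 ± 0.11 it passed the adjusted p (0.0137, limma) at 1.42-fold, under the 2-fold threshold. Kcnf1 differed by -0.34 ± 0.12 (limma adjusted p = 0.0923), and Kcng1, Kcng2, Kcng3, Kcng4, Kcns1, Kcns2, Kcnv1 and Kcnv2 by -0.23 to 0.09.

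Of the 15 inward rectifiers, 14 had a lower mean in Scf-GFP+ cells (93.3%, against 59.5% of all genes), with a median difference of -0.21. For 11 of the 15, every value lay below the median of its array (73.3%, against 35.7% of all genes). An unadjusted limma p below 0.05 was found for 3 (20%, against 37.7% of all genes), and none was called. Kcnj2, which sets the resting potential of muscle and many other cells, came closest. It measured 5.31, 5.01 and 4.69 in Scf-GFP+ cells, against 6.01, 6.04 and 5.91 in whole marrow. The groups did not overlap, and the difference of -0.98 ± 0.17 passed the adjusted p (0.00587, limma) at 1.98-fold, just short of the fold threshold. It was called without Scf-GFP+ replicate 1 (-1.14) and without whole marrow replicate 3 (-1.02), with limma adjusted p = 0.00353 and 0.0203, from 0.00275 to 1.00 over all alternatives. Kcnj1, a renal channel, differed by -0.48 ± 0.12 and passed the adjusted p (0.0259, limma) at 1.40-fold. The G protein-gated channels Kcnj3, Kcnj5, Kcnj6 and Kcnj9 differed by -0.21, -0.28, -0.06 and -0.24. Kcnj13 was high on Scf-GFP+ replicate 1 alone, at 7.85 against 6.17 and 6.68 on replicates 2 and 3 and 6.39 to 7.06 in whole marrow. Kcnj4, Kcnj10, Kcnj12, Kcnj14, Kcnj15 and Kcnj16 differed by -0.39 to -0.01.

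The ATP-sensitive channels pair a Kcnj pore with a sulphonylurea receptor, an ABC transporter protein that is not a Kcn gene. Kcnj8, the pore known from vascular smooth muscle and pericytes, measured 6.78, 7.42 and 7.17 in Scf-GFP+ cells, against 7.03, 7.31 and 7.41 in whole marrow. The groups overlapped, and the difference was -0.12 (limma adjusted p = 0.674, 95% interval -0.58 to 0.33). It changed sign without Scf-GFP+ replicate 1, to 0.05. Its usual partner Abcc9 measured 9.01, 8.86 and 9.50 in Scf-GFP+ cells, against 6.43, 6.51 and 6.14 in whole marrow, and was higher by 2.76 ± 0.20 (limma adjusted p = 1.06e-04). Kcnj11, the other pore of this kind, measured 6.98 to 7.04 in Scf-GFP+ cells, against 7.13 to 7.23 in whole marrow (-0.18, limma adjusted p = 0.218), and its partner Abcc8 differed by -0.15. Of 10 listed markers of smooth muscle and pericytes, 4 (Rgs5, Mylk, Notch3 and Des) were called higher in Scf-GFP+ cells (40.0%, against 9.01% of all genes). None was called lower, against 7.89% of all genes. Of the 6 not called, Acta2, Cnn1 and Cspg4 had lower means (-0.65, -0.22 and -0.13), and Myh11, Tagln and Lmod1 higher ones (0.85, 0.64 and 0.07).

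**Figure D3:**
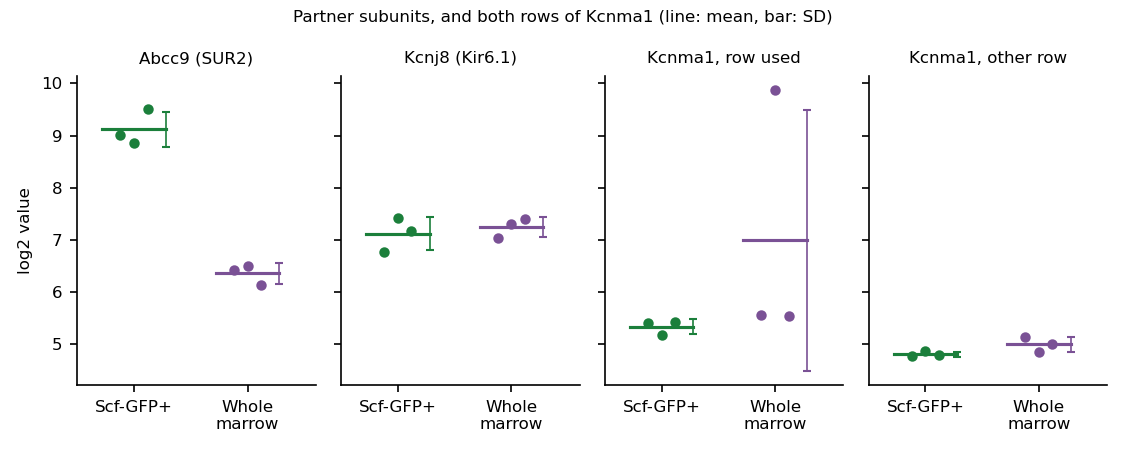
Deposited log2 values on the 3 Scf-GFP+ and 3 whole bone marrow arrays for Abcc9 and Kcnj8, which encode the receptor and the pore of one ATP-sensitive channel, and for both rows annotated as Kcnma1. Lines are means and bars SDs. Abcc9 differs by 2.76 while Kcnj8 overlaps, and a single whole marrow array at 9.88 sets the mean of the Kcnma1 row used.

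Among the 14 tandem-pore leak channels, Kcnk2 was the only gene called (7.14% higher, against 9.01% of all genes, and none lower, against 7.89%). It encodes a mechanosensitive channel that also opens with heat and polyunsaturated fatty acids. It measured 8.42, 8.47 and 7.64 in Scf-GFP+ cells, against 6.57, 6.31 and 6.48 in whole marrow. The lowest Scf-GFP+ array, replicate 3, lay above every whole marrow array. The difference of 1.73 ± 0.24 (3.31-fold, limma adjusted p = 0.00219) was called in 14 of 15 alternatives, all but the test against a 2-fold difference. Its closest relatives Kcnk4 and Kcnk10 differed by -0.13 and -0.24 and were not called. Kcnk6 measured 7.65, 7.78 and 8.34 in Scf-GFP+ cells, against 7.34, 7.43 and 7.89 in whole marrow, with overlap (0.37 ± 0.23, limma adjusted p = 0.290). The acid-sensitive channels Kcnk3 and Kcnk9 differed by -0.13 and -0.07, and Kcnk5, sensitive to alkaline pH, by -0.33 ± 0.13 (limma adjusted p = 0.111). Kcnk13 had a difference of -0.34, and Kcnk1, Kcnk7, Kcnk12, Kcnk15, Kcnk16 and Kcnk18 lay between that and 0.04.

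Small shifts were more frequent downward. The mean was lower in Scf-GFP+ cells for 70 of the 91 genes (76.9%), against 59.5% of all genes tested. All 3 Scf-GFP+ arrays lay below all 3 whole marrow arrays for 32 of the 91 (35.2%), where the share among all genes was 26.4%, and for 27 of the 32 the difference was smaller than 0.5. They lay above for 10 of the 91 (11.0%), against 19.0% of all genes. The lower quartile of all values on an array was itself 5.19 to 5.24 for Scf-GFP+ cells and 5.25 to 5.31 for whole marrow. Of the 91 genes, 60 (65.9%) lay below the median of every array, against 35.7% of all genes. Whether this bears on the downward shifts was not tested. At an adjusted p below 0.05 with no demand on the fold, 6 were higher and 4 lower, where the shares among all genes were 13.8% higher and 13.2% lower. Besides the 6 called genes these were Kcnab1, Kcns3, Kcnj2 and Kcnj1. Other channel genes were 102 genes taken by symbol, for calcium, sodium, TRP, chloride, anoctamin, cyclic nucleotide-gated and pacemaker (Hcn) channels. The symbols also took in the antisense RNA Trpc5os and Trpc4ap, which is named for a channel-associated protein. Among the 102, 5 were called higher (4.90%, against 9.01% of all genes) and 4 lower (3.92%, against 7.89% of all genes). Their median difference was -0.08. Whether they differ from the potassium channel genes was not tested.

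**Figure D4:**
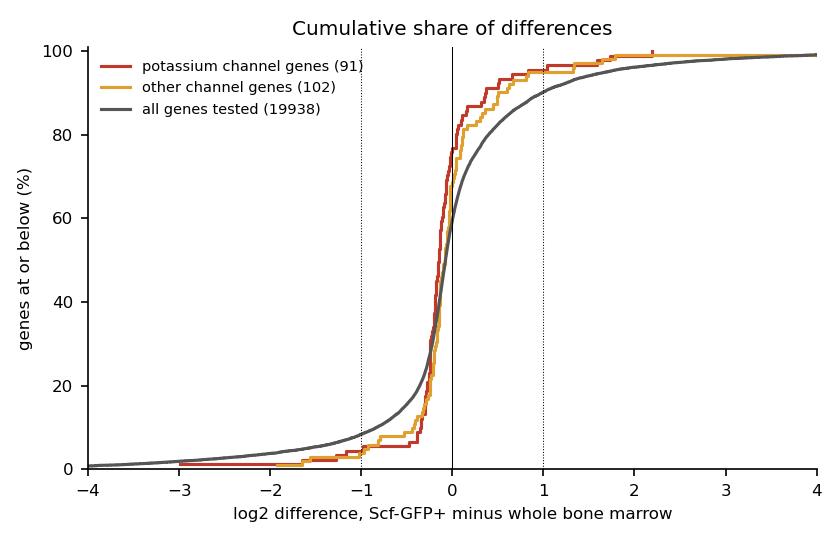
Cumulative share of genes, in percent, by log2 difference, Scf-GFP+ minus whole bone marrow, for the 91 potassium channel genes, 102 other channel genes and all 19938 genes tested. Dotted lines mark a 2-fold change. The potassium channel curve crosses 50% at -0.15 and is steeper around 0 than that of all genes, with 83 of 91 genes inside a 2-fold change.

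Genes that handle potassium by other means changed by larger amounts in a few cases. Of 14 measured genes of cation-chloride cotransport, 4 were called higher in Scf-GFP+ cells (28.6%, against 9.01% of all genes) and none lower (against 7.89% of all genes). The list did not move one way. All Scf-GFP+ arrays lay above all whole marrow arrays for 6 of the 14 (42.9%, against 19.0% of all genes). They lay below for another 6 (42.9%, against 26.4% of all genes). The median difference of the list was -0.07. Slc12a2, which carries sodium, potassium and chloride into the cell, measured 9.99, 9.46 and 8.58 in Scf-GFP+ cells, against 6.05, 5.63 and 6.46 in whole marrow (3.30 ± 0.38, limma adjusted p = 9.80e-04). The potassium-chloride exporters Slc12a4 and Slc12a7 were higher by 1.28 ± 0.18 and 1.49 ± 0.15, and Stk39, a kinase that switches these carriers, by 2.54 ± 0.16. Wnk1 and Oxsr1, kinases of the same pathway, had differences of -0.88 ± 0.27 and -0.75 ± 0.25 without overlap, and neither passed (limma adjusted p = 0.0584 and 0.0659). Of 15 measured genes of the sodium-potassium pump and its relatives, 1 was called higher (6.67%, against 9.01% of all genes). Called lower were 2 (13.3%, against 7.89% of all genes). Fxyd1, phospholemman, which regulates the pump, measured 11.46, 11.58 and 11.60 in Scf-GFP+ cells, against 6.49, 6.54 and 6.82 in whole marrow (4.93 ± 0.12). The pump subunit Atp1b1 differed by -2.38 ± 0.22, and Fxyd5, at -2.98 ± 0.48, was 10.29 on Scf-GFP+ replicate 1 against 8.71 and 8.32 on replicates 2 and 3. Of 11 partner subunits of potassium channels, Abcc9 was the only one called (9.09% higher, against 9.01% of all genes). Of 3 measured pacemaker channels, Hcn2, Hcn3 and Hcn4, none was called, with differences of -0.20, -0.25 and -0.08. These 3 are also among the 102 other channel genes. Since many potassium channels are best known from nerve, markers of neurons and Schwann cells were set beside them. Of 8 measured, S100b was called higher in Scf-GFP+ cells (12.5%, against 9.01% of all genes) and none lower (against 7.89% of all genes). S100b differed by 4.28 ± 0.28, whereas 6 of the 8 had a lower mean in Scf-GFP+ cells and the median difference was -0.09. The mean log2 value of the list, 6.04 to 6.28 on the Scf-GFP+ arrays and 5.64 to 5.71 on the whole marrow arrays, therefore rests on S100b. The Schwann cell gene Sox10 differed by -0.13, and the neuronal genes Snap25, Syt1 and Elavl4 by -0.13, -0.05 and -0.13.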

How the data were processed

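Expression was measured on 6 Affymetrix Mouse Gene 1.0 ST arrays. The authors deposited 1 table of log2 values, and RMA, affy and limma are named in the submitters' processing notes without versions or roles. No source used here gives the build or version of the array annotation. Values were used as deposited. Of 28940 rows, 21789 list 1 symbol, 1621 several and 5530 none. Symbols were updated through Entrez identifiers (RefSeq, GRCm38.p6), and the row with the highest mean over 6 arrays stood for a gene, which left 19938 genes. For 3 of the 91 members this chose between rows. Groups were compared with limma 3.58.1 (lmFit, eBayes) in R 4.3.3, without covariates. Called means an adjusted p below 0.05 (Benjamini-Hochberg, all genes) and a difference of at least 2-fold. The fit was tested on simulated data. The number of arrays limits the precision.

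The members and lists were chosen with earlier results of these data known. Named genes are all called members, 9 genes fixed by name, and per family the 2 members not called with the largest differences, with others given by range. The 15 alternatives leave out each array, add a replicate block, drop the dimmest 30% of genes, average a gene's rows, centre or quantile-normalize again, use trend and robust variance, array weights, a term for Xist, or limma's treat. Proteins were planned but are not printed. The replicate numbers were not taken to pair the arrays, since no label says that they do.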

Additional observations from a re-analysis of the deposited data

How the results depend on the processing

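Of 322 single-gene values under the alternatives, 295 kept their direction and their side of the threshold, 18 lost a call, 8 gained one and 1 changed sign. The sign change was Kcnj8, 0.05 without Scf-GFP+ replicate 1, and from -0.27 to 0.05 over the arrays left out. Leaving out single arrays gave 2 to 5 potassium channel genes called higher and 1 to 3 called lower, and 1618 to 1822 and 1448 to 1560 over all genes. Without the dimmest 30% of genes, 2 potassium channel genes were called higher, because Kcne4 and Kcnt1 are among the genes dropped. The filter kept 48 of the 91. Tested against a 2-fold difference with limma's treat, a stricter test, 0 were called higher and 1 lower (Kcnn4), and 792 and 792 over all genes. At an unadjusted p below 0.05 in the fit with all arrays, 24 of the 91 passed (26.4%), against 37.7% of all genes. With the replicate number as a block, 1 was called lower, since Kcnab2 had a limma adjusted p of 0.0595. The deviations of same-numbered arrays correlated by -0.06, -0.02 and 0.07 across genes, so the numbers were not taken to pair the arrays. With a term for high Xist, which sets Scf-GFP+ replicate 3 alone against whole marrow, Kcne4 and Kcnab2 lost their calls (0.97 and -1.34), and Kcnd1 (1.38), Kcne2 (1.29) and Kcnj2 (-1.30) gained one, and the cause was not tested. Kcnj2 was also called with each array centred on its median (-1.02).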
